A study of Mus musculus with 48 samples.

Results

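The comparison described here is that of FoxP1SkmKO with WT skeletal muscle in mice without tumors, and it asks what the loss of *Foxp1* from muscle fibers does to the muscle transcriptome in the absence of cancer. Its members were all libraries whose labels name control mice, 24 of the 48 libraries of the series, with 12 from WT and 12 from FoxP1SkmKO mice. In both genotypes, 2 male mice per time point were sampled every 4 h from CT18 to CT38, where CT is circadian time in hours in mice held in constant darkness, and each library was made from RNA of a tibialis anterior muscle, a fast muscle of the lower leg. The other 24 libraries came from mice with orthotopic KPC pancreatic tumors at the same times and were used only to see whether the effect of genotype recurred in other animals.

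FoxP1SkmKO mice carry floxed *Foxp1* alleles and a Cre recombinase under the promoter of *Acta1*, the skeletal actin gene of muscle fibers, so that other cells of the tissue keep *Foxp1*. The series record describes the mice called WT as floxed animals that carry no Cre, whereas the sample labels and the methods name C57BL/6J mice, so a difference in background between the genotypes cannot be told apart from the effect of the deletion. Control mice of both genotypes had received a sham injection of phosphate-buffered saline into the pancreas. The series record gives an age of 39 to 55 weeks, and another passage of the study gives a younger age for the sequenced mice. Total counts on genes ranged from 15130678 to 19980731 in WT and from 15251997 to 20139355 in FoxP1SkmKO control libraries.

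FOXP1 is a forkhead transcription factor that binds DNA through a winged-helix domain and acts mainly as a repressor of transcription. It shares its core recognition motif with the FOXO factors, which drive the genes of protein breakdown in wasting muscle. In a repressor knockout, targets may rise when the factor is lost, whereas genes downstream of those targets may move either way. Bulk muscle RNA does not separate these cases, and fewer cells of a type cannot be told apart from less RNA per cell.

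The skeletal muscle identity of the tissue was plain. All 8 defining muscle genes were measured, and their summed level was 133100 to 156582 CPM in WT libraries and 136262 to 152976 CPM in FoxP1SkmKO libraries, where CPM is the count of a gene scaled to a common library total. *Foxp1* itself did not separate the genotypes. It was measured at 6.04 to 13.5 CPM in the 12 WT libraries, with a median of 8.55, and at 6.02 to 9.01 CPM in the 12 FoxP1SkmKO libraries, with a median of 8.16. The FoxP1SkmKO range lay almost wholly within the WT range, whose upper part lay above every FoxP1SkmKO library. The log2 fold change of FoxP1SkmKO against WT was -0.11 (SE 0.08, adjusted p = 0.527 by edgeR's quasi-likelihood test). By the same test it was -0.19 without CT26 (adjusted p = 0.237) and -0.20 in KPC mice (adjusted p = 0.413). At CT26 the estimate was 0.29. The *Foxp1* counts cover the whole gene (mm39, chromosome 6, 98902299 to 99499682, minus strand), including exons outside the deleted part and transcripts of cells without Cre, so they are no check of the labels. *Nnt*, which carries a deletion in C57BL/6J mice, was listed at 0 to 10 counts in WT control libraries (median 3.0) and at 2 to 44 counts in FoxP1SkmKO control libraries (median 9.5), with medians of 5.0 and 8.0 in KPC mice, and was removed by the filter on low counts.

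Because *Foxp1* did not check the labels, each library was set against the leading genes of the genotype effect. For each circadian time, the 20 genes with the smallest p in the control libraries of the other 5 times were taken, and it was counted how many of them lay closer to the FoxP1SkmKO than to the WT median. Of the 48 libraries, 44 lay with their label. The 12 WT control libraries were closer to FoxP1SkmKO in 1 to 7 of the 20 genes, and 11 of the FoxP1SkmKO control libraries in 13 to 20. The library labelled FoxP1SkmKO control CT26 replicate 1 was closer to FoxP1SkmKO in 1 of 20 genes. Among KPC mice, the libraries labelled WT CT22 replicate 1 and WT CT26 replicate 1 were closer to FoxP1SkmKO in 16 and 17 genes, and that labelled FoxP1SkmKO CT22 replicate 2 in 6 genes. Every library was kept under its label. The counts of genes called for genotype in control and in KPC mice, and for genotype by tumor, are given with and without these 4, a choice made after their values were seen. The count for genotype by time is given as a range over single libraries left out, and counts by position and by motif with all libraries only. The lists and single genes are given with all libraries, and without the control library where its removal changed a call.

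**Figure D1:**
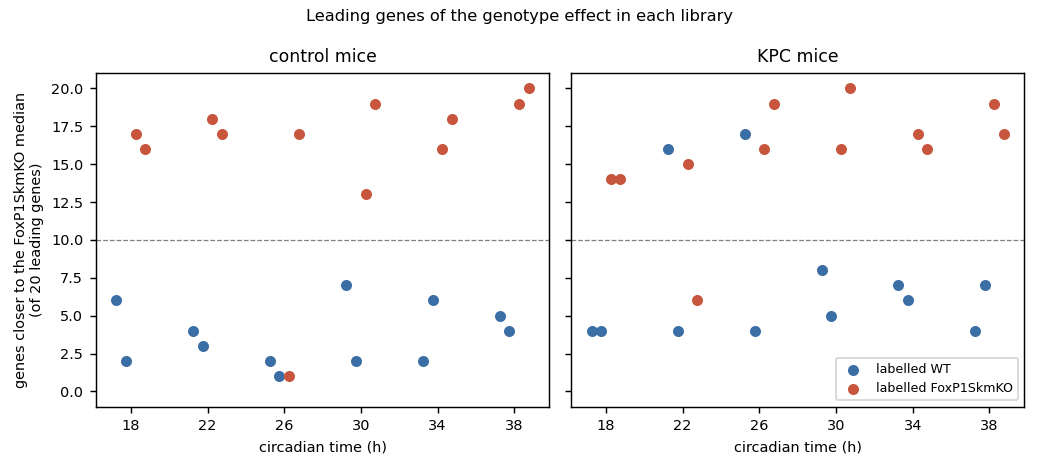
Number of the 20 leading genes of the genotype effect (vertical axis) that lay closer to the FoxP1SkmKO than to the WT median in each library, by circadian time in hours, for control (left) and KPC mice (right); points are libraries colored by label and the dashed line marks 10 genes. One control library labelled FoxP1SkmKO lies at 1, among the WT libraries, and 3 KPC libraries lie on the other side of the line from their label.

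Over all genes, WT CT26 replicate 1 stood farthest from the other control libraries, with a root mean square distance from the median library of 0.352 on the log2 scale. FoxP1SkmKO CT18 replicate 2 (0.282), FoxP1SkmKO CT38 replicate 2 (0.272), and WT CT26 replicate 2 (0.263) followed, and the other 20 libraries lay at 0.195 to 0.235, that labelled FoxP1SkmKO CT26 replicate 1 at 0.211. All comparisons were therefore also made without CT26, which leaves 10 libraries per genotype.

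Deletion of *Foxp1* was accompanied by a modest change in the control muscle transcriptome. Of 13524 genes tested, 526 were called at an adjusted p under 0.05 (3.89%), 279 higher (2.06%) and 247 lower (1.83%) in FoxP1SkmKO mice, in an edgeR quasi-likelihood fit with genotype and circadian time. Most shifts were small. The median size of the change among called genes was 0.28 on the log2 scale, 102 genes changed by at least 1.5-fold (63 higher and 39 lower), and 30 by at least 2-fold (22 higher and 8 lower). Without CT26, 476 of 13523 genes were called (3.52%), 245 higher (1.81%) and 231 lower (1.71%), and 363 genes were called in both fits. Without the library labelled FoxP1SkmKO control CT26 replicate 1, 558 of 13564 genes were called (4.11%), 278 higher (2.05%) and 280 lower (2.06%), and 473 of these were called with all libraries. In 412 of the 526 genes the estimated change had the same direction at all 6 times. These genes were called on the same libraries, so such agreement was partly fixed by the choice, and the share over all genes is not given.

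Among protein-coding genes, the strongest increases included a RAC1 activator, ion channel subunits, a mitochondrial carrier, and a Z-disc protein. *Tiam1*, a guanine nucleotide exchange factor that activates RAC1 (mm39, chromosome 16, 89583999 to 89940657, minus strand), had the smallest p. Its level was 10.996 to 21.1 CPM in WT libraries, with a median of 12.7, and 14.4 to 58.1 CPM in FoxP1SkmKO libraries, with a median of 42.1. The value of 14.4 CPM came from the library labelled FoxP1SkmKO control CT26 replicate 1, and the other 11 FoxP1SkmKO libraries, at 36.2 CPM or more, lay above every WT library. *Tiam1* rose 2.92-fold (log2 fold change 1.55, SE 0.11, adjusted p = 1.01e-09 by edgeR). The estimate was positive at every time, from 1.10 at CT26 to 1.91 at CT38 on the log2 scale.

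*Cacnb4*, which encodes an auxiliary beta subunit of voltage-gated calcium channels, showed the largest change among the 12 protein-coding genes of largest increase. It was measured at 0 to 0.783 CPM in WT libraries, with a median of 0.473, and at 0.681 to 5.63 CPM in FoxP1SkmKO libraries, with a median of 2.34. Low in both genotypes, it was higher in 11 of the 12 FoxP1SkmKO libraries than in any WT library, with a log2 fold change of 2.59 (SE 0.25, adjusted p = 1.17e-06 by edgeR). *Catsperg1*, an auxiliary subunit of the sperm calcium channel, was another gene of low level. It rose from a median of 0.548 CPM in WT (0.196 to 0.911) to 1.62 CPM in FoxP1SkmKO libraries (0.624 to 8.55), a log2 fold change of 1.92. *Scn3b*, a beta subunit of voltage-gated sodium channels, rose by 1.15 on the same scale.

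*Slc25a25*, a mitochondrial carrier that exchanges ATP-magnesium for phosphate, rose from a median of 24.3 CPM in WT (10.7 to 35.9) to 60.1 CPM in FoxP1SkmKO libraries (22.2 to 113). Its lowest FoxP1SkmKO value again belonged to the library labelled CT26 replicate 1, and the other 11, at 35.97 to 113 CPM with a median of 61.4, all lay above the highest WT library, the lowest of them only just. The fold change was 2.59 (log2 1.37, SE 0.19, adjusted p = 0.000104 by edgeR). *Igfn1*, an immunoglobulin- and fibronectin-domain protein of the sarcomeric Z-disc, was 12.9 to 33.0 CPM in WT libraries (median 17.8) and 29.4 to 253 CPM in FoxP1SkmKO libraries (median 46.3). The groups touched only at the edges, and CT38 replicate 2 was far above the other FoxP1SkmKO libraries. The log2 fold change was 1.42 with all libraries and 1.17 without that one.

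The remaining genes of largest increase were *Gm4841*, *Cda*, *Atp8b5*, *Fos*, *Apold1*, and *Shisal1*, with log2 fold changes of 1.12 to 2.03. *Cda* encodes cytidine deaminase of pyrimidine salvage, and *Atp8b5* a phospholipid-flipping ATPase. *Gm4841* rested in part on 1 animal: it was 4.72 to 152 CPM in FoxP1SkmKO libraries with a median of 6.57, against 1.31 to 5.29 CPM in WT, and its log2 fold change was 2.03 with and 1.43 without FoxP1SkmKO CT18 replicate 2 (adjusted p = 0.0128 with it by edgeR).

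**Figure D2:**
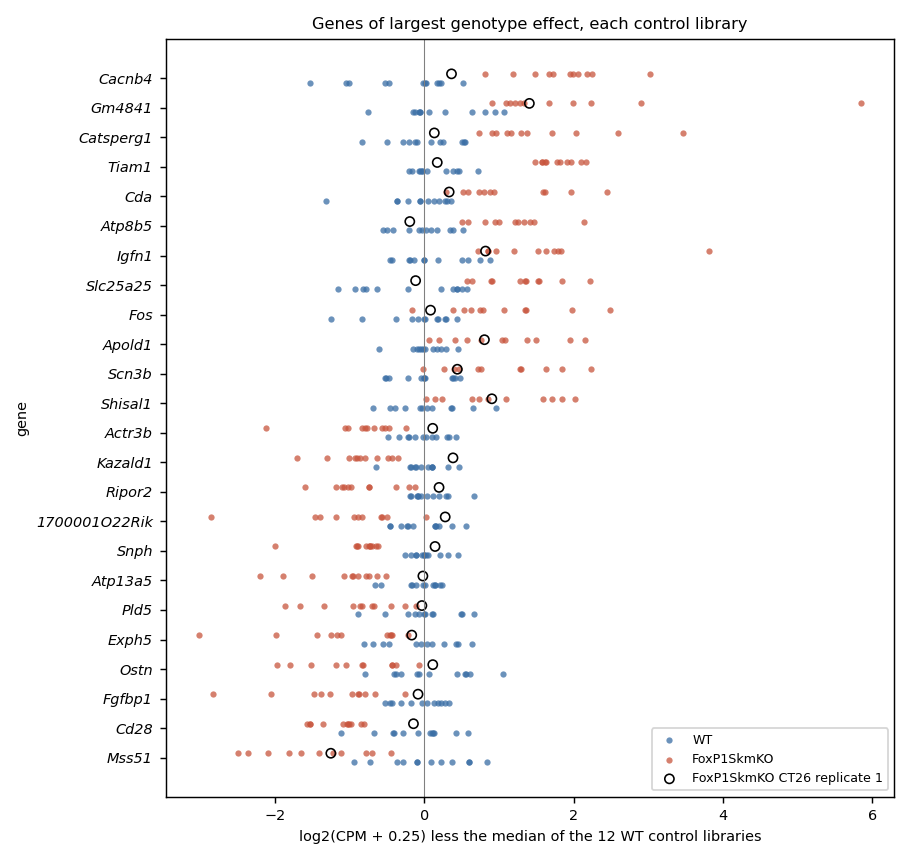
Level of the 12 genes of largest positive and 12 of largest negative genotype effect in each control library, as log2(CPM + 0.25) less the median of the 12 WT libraries (horizontal axis); blue points are WT, red points FoxP1SkmKO, and the open circle is the library labelled FoxP1SkmKO CT26 replicate 1. *Tiam1* and *Slc25a25* separate the genotypes apart from the open circle, which lies among the WT points for most genes.

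The genes that fell most included those of secreted muscle proteins and of proteins that act at mitochondria. *Mss51*, a muscle protein linked to mitochondrial respiration and to myostatin signaling (mm39, chromosome 14, 20532935 to 20546969, minus strand), was 13.1 to 45.6 CPM in WT libraries (median 25.5) and 4.31 to 18.7 CPM in FoxP1SkmKO libraries (median 9.996). The ranges overlapped at their edges only. *Mss51* was 2.70-fold lower in FoxP1SkmKO mice (log2 fold change -1.43, SE 0.20, adjusted p = 0.000114 by edgeR), with estimates from -0.56 at CT26 to -2.32 at CT38. *Ostn*, which encodes the secreted peptide musclin, was 3.82 to 14.4 CPM in WT libraries (median 6.80) and 1.55 to 7.38 CPM in FoxP1SkmKO libraries (median 3.73). Its highest FoxP1SkmKO value was again that of CT26 replicate 1, and it was 2.00-fold lower (adjusted p = 0.00386 by edgeR).

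*Fgfbp1*, a secreted carrier of fibroblast growth factors that muscle supplies to the neuromuscular junction, fell by 1.18 on the log2 scale, from a median of 1.94 CPM (1.27 to 2.51) to 0.903 CPM (0.0574 to 1.82). *Cd28*, best known as a costimulatory receptor of T cells, fell by 1.21, and *Snph*, which anchors mitochondria to microtubules, by 0.87. Other leukocyte markers did not fall with *Cd28*: of 8 listed, 1 was at 0 in all libraries, 2 were tested and none called, *Ighm* at a log2 fold change of 0.24 and *Cd3e* at 0.43, and their summed level was 26.5 to 81.6 CPM in WT and 28.5 to 68.5 CPM in FoxP1SkmKO libraries. The other genes of largest decrease, *Exph5*, *Pld5*, *Atp13a5*, *1700001O22Rik*, *Ripor2*, *Kazald1*, and *Actr3b*, had log2 fold changes of -0.97 to -0.72. *Ripor2* restrains RHOA, and *Actr3b* is a subunit of the actin-nucleating Arp2/3 family.

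A single FoxP1SkmKO animal marked the extreme of many of these genes. CT38 replicate 2 held the highest value for 6 of the 12 rising genes and the lowest for 10 of the 12 falling genes. Without it, 382 genes were called across the transcriptome. None of the 24 genes lost its call when any single control library was left out. When a whole time point was left out, 3 lost it by edgeR: *Exph5* without CT18 (adjusted p = 0.057), *Pld5* without CT18 (0.0526), CT22 (0.0576), or CT38 (0.0783), and *Gm4841* without CT38 (0.0638). With no circadian time in the model, *Exph5* (adjusted p = 0.0706 by edgeR) and *1700001O22Rik* (0.0707) lost it.

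With the library labelled FoxP1SkmKO CT26 replicate 1 set aside, the 12 WT and 11 FoxP1SkmKO libraries did not overlap for 16 genes (0.118% of genes tested), 11 higher (0.0813%) and 5 lower (0.037%), and with all 24 libraries they did not overlap for any gene (0%). That library was recognized by leading genes of the same effect, *Tiam1*, *Cacnb4*, *Tulp3*, and *Mfhas1* among them. The count of 16 is therefore not independent of the choice. Higher throughout were *Tiam1*, *Cacnb4*, *Catsperg1*, and *Slc25a25*, the ciliary trafficking gene *Tulp3* (log2 fold change 0.78), *Mfhas1* (1.05), the nucleoporin gene *Nup133* (0.41), the Notch antagonist *Numb* (0.45), *Reep5* (0.23), the carbonic anhydrase gene *Car2* (0.35), and an unnamed transcript, ENSMUSG00000120850 (2.85). Lower throughout were *Cbr2* (-0.67), *2310065F04Rik* (-0.65), *Snph* (-0.87), *Asb14* (-0.32), and *9830004L10Rik*.

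Glucocorticoid-responsive genes held the largest share of called members among the 36 lists examined. Of 16 tested, 6 rose (37.5%, beside 2.06% of all genes), none fell, and the median log2 fold change was 0.20 (all genes 0.00). *Cdkn1a*, which encodes the cell cycle inhibitor p21, was 3.76 to 13.9 CPM in WT (median 6.44) and 4.48 to 27.4 CPM in FoxP1SkmKO libraries (median 11.3). The ranges overlapped widely, and *Cdkn1a* rose 1.77-fold (adjusted p = 0.00765 by edgeR), with estimates from 0.16 at CT34 to 1.86 at CT38 on the log2 scale. Its call was lost without CT18 (adjusted p = 0.0662 by edgeR). *Pdk4*, a kinase that turns off pyruvate dehydrogenase and spares glucose, was 143 to 368 CPM in WT (median 192) and 216 to 765 CPM in FoxP1SkmKO libraries (median 299). It rose 1.70-fold (adjusted p = 0.00255 by edgeR), as the 1 called member of 29 genes of fatty acid oxidation.

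*Per1*, a clock repressor that glucocorticoids also induce, rose 1.64-fold, and *Cebpd*, a transcription factor of the stress response, had a log2 fold change of 0.34. The other called members were *Errfi1*, a feedback inhibitor of EGF receptor signaling, at 0.31, and *Glul*, glutamine synthetase, at 0.21. Without CT26, 4 of the 16 genes were called, and *Cebpd* (adjusted p = 0.0949 by edgeR) and *Glul* (0.169) no longer were. Without the library labelled FoxP1SkmKO CT26 replicate 1, 4 were called too, with *Cebpd* at an adjusted p of 0.0519 and *Glul* at 0.0719 by edgeR. The call of *Cebpd* was also lost when any of 17 libraries was left out.

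Immediate early genes, which neurons and muscle switch on within minutes of activity, also held called members. Of 14 tested, 3 rose (21.4%, beside 2.06% of all genes) and none fell, with a median log2 fold change of 0.23. *Nr4a1*, an orphan nuclear receptor induced by contraction, was 120 to 192 CPM in WT (median 147) and 139 to 241 CPM in FoxP1SkmKO libraries (median 220). Its lowest FoxP1SkmKO value was that of CT26 replicate 1, with the others at 173 CPM or more. *Nr4a1* rose 1.41-fold (adjusted p = 7.17e-05 by edgeR), and its estimate lay between 0.36 and 0.66 at all 6 times. *Fos*, a subunit of the AP-1 factor, was 1.11 to 4.12 CPM in WT (median 2.98) and 2.64 to 17.9 CPM in FoxP1SkmKO libraries (median 5.25), a 2.32-fold rise (adjusted p = 0.00292 by edgeR). *Btg2* rose by 0.36 on the log2 scale, a call that was lost when any of 14 libraries was left out.

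Contractile and calcium-handling genes were set beside all genes tested, of which 2.06% were called higher and 1.83% lower. Of 14 fast-fiber genes none was called and the median was -0.10 on the log2 scale, and *Myh4*, the myosin heavy chain of the fastest fibers, was at 0.03. Of 10 slow-fiber genes, 5 had a positive estimate, and the median was 0.00 on the log2 scale. *Myl3*, the slow essential light chain, was the 1 called gene and fell. It was 17.3 to 39.2 CPM in WT (median 25.2) and 12.2 to 28.3 CPM in FoxP1SkmKO libraries (median 17.9), and was 1.41-fold lower (adjusted p = 0.0251 by edgeR). Without CT26, *Myl2*, the slow regulatory light chain, was also called (log2 fold change -1.27, adjusted p = 0.0187), as it was without the library labelled FoxP1SkmKO CT26 replicate 1 (-1.33, adjusted p = 0.00778). The call of *Myl3* was lost without WT CT26 replicate 1 (adjusted p = 0.052), WT CT38 replicate 2 (0.0538), or FoxP1SkmKO CT22 replicate 2 (0.0514), and without CT18 (0.0765), CT22 (0.0958), or CT38 (0.121).

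*Sln* encodes sarcolipin, an inhibitor of the calcium pump of the sarcoplasmic reticulum. The gene was the 1 called of 13 acetylcholine receptor and denervation genes (7.69%, beside 2.06% of all genes called higher). It was 0.131 to 1.52 CPM in WT (median 0.945) and 0.961 to 27.3 CPM in FoxP1SkmKO libraries (median 1.75), and its 2 highest values came from FoxP1SkmKO CT38 replicate 2 and CT18 replicate 2. The log2 fold change was 1.88 (adjusted p = 0.022 by edgeR) and 1.24 without the first of these (adjusted p = 0.0346). The call was lost without the second (log2 fold change 1.59, adjusted p = 0.0578), without WT CT38 replicate 1 (adjusted p = 0.0608), and without CT18 (0.128) or CT38 (0.0503). *Stac3*, which couples the voltage sensor to calcium release, was the 1 called gene of 15 of its list (6.67%, beside 1.83% of all genes). Its log2 fold change was -0.14, and the call was lost when any of 17 libraries was left out.

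Among metabolic and growth genes, 2 of 30 genes of glycolysis and glycogen fell (6.67%, beside 1.83% of all genes), *Slc16a3*, a lactate exporter, at -0.22, and *Ugp2*, which makes UDP-glucose for glycogen, at -0.19. The call of *Ugp2* was lost without CT34 (adjusted p = 0.0533 by edgeR) or CT38 (0.0624). Of 20 genes of the myostatin, activin, and IGF pathway, *Igf1r*, the receptor of IGF1, rose by 0.20, with an adjusted p of 0.0203 by edgeR with CT26 and 0.0558 without it, whereas *Mstn*, the muscle growth inhibitor myostatin, was at -0.27 (adjusted p = 0.0545) and was called without CT26 (-0.37, adjusted p = 0.00487) and without the library labelled FoxP1SkmKO CT26 replicate 1 (-0.31, adjusted p = 0.0162). Of 46 proteasome genes 4 fell (8.70%, beside 1.83% of all genes) and none rose, and 3 fell without the library labelled FoxP1SkmKO CT26 replicate 1. These were the core subunits *Psma3* (-0.22) and *Psmb2* (-0.14), the deubiquitinase of the lid *Psmd14* (-0.14), and the activator *Psme4* (-0.19). The calls of *Psmb2* and *Psme4* were lost when any of 17 and 3 libraries, respectively, was left out, for *Psme4* WT CT34 replicate 1, WT CT38 replicate 1, and FoxP1SkmKO CT18 replicate 2. The call of *Psmd14* was lost without any time point but CT26, with adjusted p of 0.0504 to 0.101 by edgeR. Of 22 atrophy genes none was called with all times. *Ctsl*, cathepsin L, and *Mt1*, metallothionein 1, were called higher without CT26, and *Ctsl* also without the library labelled FoxP1SkmKO CT26 replicate 1 (adjusted p = 0.0286 by edgeR).

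None of 81 subunits of oxidative phosphorylation, 13 mitochondrially encoded genes, 75 cytosolic or 77 mitochondrial ribosomal proteins, 32 collagen chains, 22 lipid synthesis genes, 16 heat shock genes, or 9 developmental and stress-induced sarcomere genes passed the test with all times. The medians of these lists ran from -0.07 to 0.03 on the log2 scale. Estimates were positive in 6 of 81 subunits of oxidative phosphorylation, 10 of 75 cytosolic and 12 of 77 mitochondrial ribosomal proteins. The medians of these were -0.02, 0.01, and -0.02 without CT26. By comparison, 12 of 22 lipid synthesis genes and 6 of 9 sarcomere genes were positive with all times. Without CT26, 1 mitochondrial ribosomal protein was called higher and 1 collagen chain lower. Without the library labelled FoxP1SkmKO CT26 replicate 1, *Col9a1*, a collagen chain, and *Csrp3*, a stretch-responsive LIM protein, were called lower (adjusted p = 0.0493 and 0.0469 by edgeR).

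**Figure D3:**
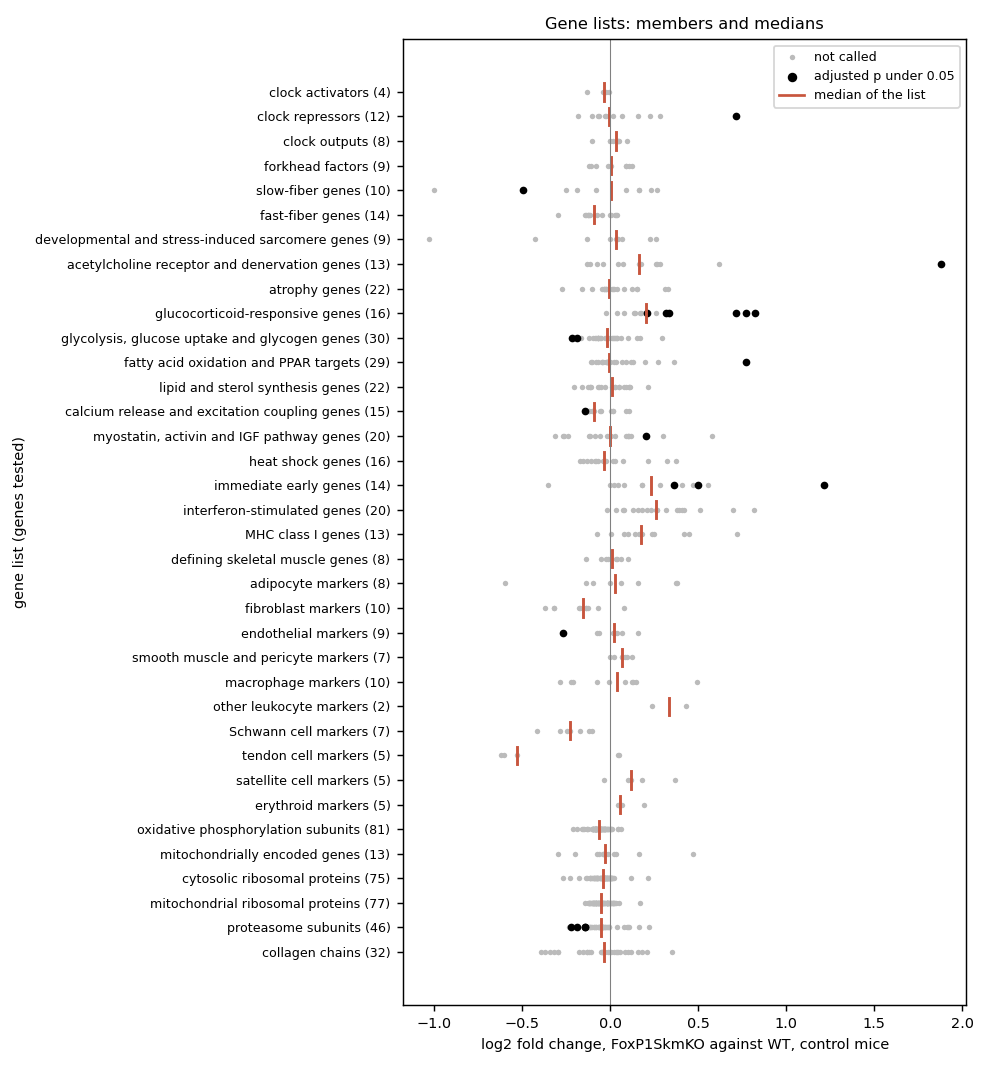
Log2 fold change of FoxP1SkmKO against WT in control mice (horizontal axis) for the tested members of 36 gene lists, whose sizes stand in parentheses; black points passed an adjusted p under 0.05, grey points did not, and the red bar is the list's median. Glucocorticoid-responsive genes hold 6 called members and immediate early genes 3, all to the right of 0.

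Of 9 forkhead factors tested, *Foxp1* among them, none was called, and the estimates ran from -0.12 to 0.12 on the log2 scale, with *Foxo4* at 0.00 and *Foxk2* at -0.08. Of the markers of 10 other cell types in muscle, 1 was called, the endothelial gene *Emcn* (-0.27, adjusted p = 0.0363 by edgeR). It was 1 of 9 endothelial markers tested (11.1%, beside 1.83% of all genes called lower). Its call was lost without CT26 and when any of 12 libraries was left out. The lists held 2 to 10 tested markers each and 3.89% of all genes were called, so the single call gives no result about these cells. The summed level of the 9 endothelial markers was 458 to 552 CPM in WT and 471 to 607 CPM in FoxP1SkmKO libraries. Fibroblast markers had a median of -0.16, Schwann cell markers of -0.23 with none of 7 positive, and tendon cell markers of -0.53 with 2 of 5 positive, none of them called. The summed level of tendon cell markers was 53.7 to 179 CPM in WT and 54.0 to 148 CPM in FoxP1SkmKO libraries. The part of other cells in the genotype effect was not tested.

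Interferon-stimulated genes leaned upward without a call. In 19 of 20 the estimate was positive and the median was 0.26, but none passed the test. The summed level of the list had a median of 104 CPM in WT and 110 CPM in FoxP1SkmKO libraries. The lowest of all 24 libraries was FoxP1SkmKO CT18 replicate 1 at 92.8 CPM. The highest was FoxP1SkmKO CT18 replicate 2 at 378 CPM, ahead of FoxP1SkmKO CT22 replicate 1 at 201 CPM and CT26 replicate 1 at 183 CPM. *Igtp*, an interferon-inducible GTPase, was 7.69 to 11.5 CPM in WT and 8.04 to 94.2 CPM in FoxP1SkmKO libraries (median 11.7). Its log2 fold change fell from 0.69 to 0.29 without FoxP1SkmKO CT18 replicate 2. MHC class I genes had a median of 0.17 with none of 13 called. In KPC mice the median log2 fold change was -0.13 for the interferon-stimulated genes and -0.08 for the MHC class I genes.

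In the molecular clock, BMAL1 and CLOCK drive the genes of the Period and Cryptochrome repressors, and REV-ERB receptors in turn repress the gene of BMAL1. In control mice the genotypes differed in 1 of the clock repressors. *Per1* was 8.91 to 92.3 CPM in WT (median 37.1) and 23.1 to 109 CPM in FoxP1SkmKO libraries (median 44.5), a wide range in both genotypes. Its log2 fold change with time in the model was 0.71 (SE 0.14, adjusted p = 0.00416 by edgeR), and 0.52 without CT26 (adjusted p = 0.0121). The estimate was 1.85 at CT26 and 0.34 to 0.82 at the other times, and without time in the model the call was lost (adjusted p = 0.51).

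None of the other 11 repressors was called, nor any of the 4 activators. *Per2* was at 0.22 and *Ciart* at 0.28 on the log2 scale with adjusted p of 0.365 and 0.464, *Per3* at 0.16, and *Nfil3* at -0.18. *Cry1* (0.07), *Cry2* (-0.07), *Nr1d1* (-0.07), *Nr1d2* (-0.03), *Bhlhe40* (0.01), *Bhlhe41* (-0.10), and *Klf9* (-0.03) lay nearer to 0. Among activators, *Arntl*, the gene of BMAL1, was at -0.03, *Clock* at -0.01, and *Rora* at -0.04. *Nr1d1* had estimates of 0.34 at CT22 and -0.33 at CT34, with an adjusted p of 0.0874 by edgeR for genotype by time. *Arntl* ranged from 5.71 to 37.2 CPM in WT and from 5.21 to 33.5 CPM in FoxP1SkmKO libraries across the day. None of 8 clock outputs was called.

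**Figure D4:**
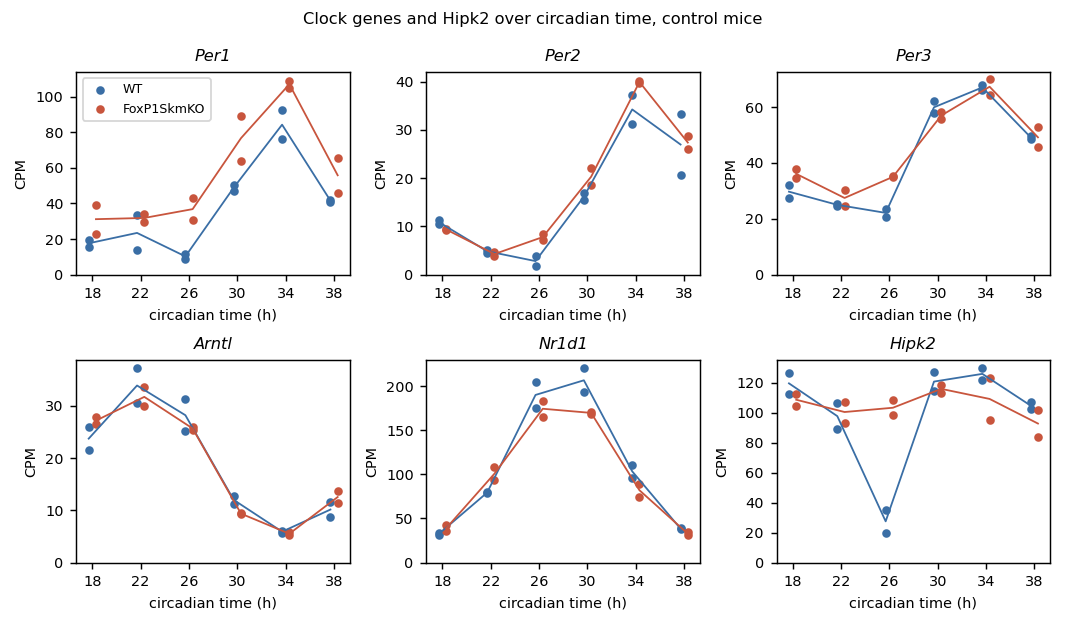
CPM (vertical axes) of 5 clock genes and *Hipk2* in each control library by circadian time in hours; points are single mice, 2 per genotype and time, and lines join their means. *Per1* lies higher in FoxP1SkmKO mice at most times, *Arntl* peaks near CT22 and *Nr1d1* near CT26 to CT30 in both genotypes, and *Hipk2* drops in WT mice at CT26 alone.

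The number of genes whose genotype effect varied with circadian time depended on the test and on single libraries. In a test of genotype by time with 5 degrees of freedom, 42 of 13524 genes were called (0.311%), and 1 of these was among the 526 genes called for genotype. The count ran from 4 without WT CT26 replicate 1 to 165 without FoxP1SkmKO CT38 replicate 1. When the genotype effect at CT26 was set against its mean at the other 5 times, 712 genes were called (5.26%), 445 with a higher (3.29%) and 267 with a lower value at CT26 (1.97%). *Hipk2*, a stress-activated nuclear kinase, led the list. At CT26 it was 20.0 and 35.1 CPM in WT and 108 and 98.5 CPM in FoxP1SkmKO mice, and at the other times every library of either genotype lay within 83.8 to 130 CPM. The WT libraries at CT26, not the FoxP1SkmKO libraries, were the ones that departed.

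The *Per* genes, whose levels change widely over the day, also differed at CT26. *Per1* was 8.91 and 11.5 CPM in WT at CT26 and 30.6 and 43.0 CPM in FoxP1SkmKO mice, and *Per2* was 1.82 and 3.78 CPM against 7.21 and 8.37 CPM. The difference of the CT26 effect from the other times was 1.32 for *Per1* (adjusted p = 0.0275 by edgeR), 1.46 for *Per2* (0.0053), and 0.60 for *Per3* (0.0056) on the log2 scale. For all of these genes, both FoxP1SkmKO libraries at CT26 lay above both WT libraries. Over all genes, the count of 712 fell to 24 without WT CT26 replicate 1, to 331 without FoxP1SkmKO CT26 replicate 1, and to 253 without FoxP1SkmKO CT26 replicate 2. Without CT26, 3 genes were called for genotype by time.

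Position on the chromosome was examined because the floxed allele and the genes beside it are inherited together. *Eif4e3*, a cap-binding translation factor whose gene starts 144 kb before that of *Foxp1*, was 26.1 to 33.0 CPM in WT (median 29.3) and 31.0 to 42.9 CPM in FoxP1SkmKO libraries (median 35.1). It rose by 0.28 on the log2 scale (adjusted p = 0.00146 by edgeR). *Gpr27*, an orphan receptor gene 170 kb away, rose by 0.79, from a median of 0.678 to 1.17 CPM, a call lost without CT30 (adjusted p = 0.0712 by edgeR) or CT38 (0.0647). These were 2 of the 3 genes tested within 1 Mb of the middle of *Foxp1*, itself left out. Within 10 Mb, 5 of 65 genes were called (7.69%), within 20 Mb 11 of 214 (5.14%), and on the rest of chromosome 6 16 of 470 (3.40%). The other called genes within 10 Mb were *Slc41a3* (-0.19), *Iqsec1* (0.14, lost when any of 11 libraries was left out), and *Itpr1*, a calcium release channel (-0.25, lost without CT34 at an adjusted p of 0.0563 or CT38 at 0.0671 by edgeR). On other chromosomes the share ran from 2.68% on chromosome 17 to 5.26% on chromosome 12, apart from the 6 genes of chromosome Y and the 28 of the mitochondrial genome, none of which was called. On chromosome X, 20 of 423 genes were called (4.73%). Of these 3 rose and 17 fell, beside 279 higher (2.06%) and 247 lower (1.83%) of all 13524 genes tested.

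The forkhead motif TGTTTAC and the E-box CACGTG, which BMAL1 and CLOCK bind, were looked for on both strands of RefSeq promoters (GRCm38.p6, 250 bases before to 50 after the start), which matched 9978 of the tested genes. TGTTTAC stood in 12 of 199 promoters of genes called higher (6.03%), 5 of 185 called lower (2.70%), and 314 of all 9978 (3.15%). Its core TGTTTA, which these matches also hold, stood in 12.6%, 12.4%, and 10.4%, and CACGTG in 17.1%, 10.8%, and 11.8%. Promoters with TGTTTAC among genes with a mean log2 CPM above 0 were led by size of change by *Igfn1*, *Otud1*, and *Egf*, which are printed with *Per1* because they show where these letters lie in genes that moved. *Otud1*, a deubiquitinase gene, and *Egf*, the epidermal growth factor gene, were chosen for their motif after their values were seen, and had log2 fold changes of 0.82 and -0.58. Capitals mark TGTTTAC or its reverse complement, and in *Per1* the E-box. Matches are descriptions of letters and not of bound sites.
*Igfn1*, chr1:136006293-136006592, minus strand: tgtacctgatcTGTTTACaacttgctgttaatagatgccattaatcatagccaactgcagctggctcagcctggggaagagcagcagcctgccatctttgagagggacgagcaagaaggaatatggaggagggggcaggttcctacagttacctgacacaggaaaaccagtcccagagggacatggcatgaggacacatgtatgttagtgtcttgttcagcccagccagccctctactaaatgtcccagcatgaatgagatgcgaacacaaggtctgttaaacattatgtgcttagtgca
*Otud1*, chr2:19657481-19657780, plus strand: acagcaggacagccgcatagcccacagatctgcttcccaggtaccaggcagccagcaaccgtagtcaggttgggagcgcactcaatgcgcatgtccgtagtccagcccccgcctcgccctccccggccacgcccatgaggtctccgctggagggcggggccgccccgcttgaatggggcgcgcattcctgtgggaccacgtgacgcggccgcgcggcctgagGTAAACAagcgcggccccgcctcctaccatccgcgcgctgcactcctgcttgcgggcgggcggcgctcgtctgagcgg
*Egf*, chr3:129725037-129725336, minus strand: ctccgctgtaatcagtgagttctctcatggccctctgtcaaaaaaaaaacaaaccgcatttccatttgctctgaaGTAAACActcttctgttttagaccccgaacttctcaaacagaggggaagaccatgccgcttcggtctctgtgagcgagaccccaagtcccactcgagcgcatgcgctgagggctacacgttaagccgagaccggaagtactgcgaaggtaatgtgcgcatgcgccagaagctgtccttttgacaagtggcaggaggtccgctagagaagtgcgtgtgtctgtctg
*Per1*, chr11:69098699-69098998, plus strand: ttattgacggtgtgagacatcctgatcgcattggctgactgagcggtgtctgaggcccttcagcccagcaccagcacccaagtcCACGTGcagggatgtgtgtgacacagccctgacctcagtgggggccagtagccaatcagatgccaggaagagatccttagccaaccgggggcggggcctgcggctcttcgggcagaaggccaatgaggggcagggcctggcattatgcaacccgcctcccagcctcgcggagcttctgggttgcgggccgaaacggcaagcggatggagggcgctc

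The match begins 239 bases before the start of *Igfn1*, 28 before that of *Otud1*, 175 before that of *Egf*, and 166 before that of *Per1*. The *Igfn1* promoter reads the motif on the strand of the gene, and the other forkhead matches lie on the opposite strand. None of the promoters of *Fos*, *Pdk4*, *Cdkn1a*, *Tiam1*, *Slc25a25*, and *Mss51* holds any of the 3 words in this window.

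KPC mice offered a separate set of animals in which the same deletion could be examined. In their 24 libraries, the same fit called 3 of 13444 genes (0.0223%), 2 higher (0.0149%) and 1 lower (0.00744%), with 1248 at an unadjusted p under 0.05. These were *Nr4a1* (log2 fold change 0.42, adjusted p = 0.0132 by edgeR), *Slc25a25* (1.32, adjusted p = 0.0219), and *Wls* (-0.34, adjusted p = 0.0132), a carrier of secreted WNT proteins, and all of them had been called in the same direction in control mice. Of the 526 genes called in control mice, 525 were tested in KPC mice, 494 had the same sign there (94.1%, beside 61.3% of all genes tested), and 248 had an unadjusted p under 0.05 (47.2%, beside 9.26%). Their median log2 fold change was 0.18 in KPC mice beside 0.33 in control mice for genes called higher, and -0.12 beside -0.24 for genes called lower. Without the 3 KPC libraries that went against their labels, the KPC medians were 0.22 and -0.15. Since the genes had been chosen for large values in control mice, a smaller value in the other animals does not by itself show a difference between conditions. What made the values smaller was not tested.

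Without the 3 KPC libraries whose leading genes went against their labels, 116 of 13516 genes were called in KPC mice (0.858%), 69 higher and 47 lower, and 84 of these were among the 526. As those libraries were recognized by genes of the same effect in control mice, this count is not independent of the choice. Of the 24 genes of largest change, all had the same sign in KPC mice, 20 had an unadjusted p under 0.05 with all KPC libraries, and 14 passed the adjusted threshold without the 3. *Tiam1* had a log2 fold change of 1.12 with all KPC libraries (adjusted p = 0.0846 by edgeR) and 1.598 without the 3 (adjusted p = 2.38e-10). *Fos* was at 0.31 (adjusted p = 0.686).

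**Figure D5:**
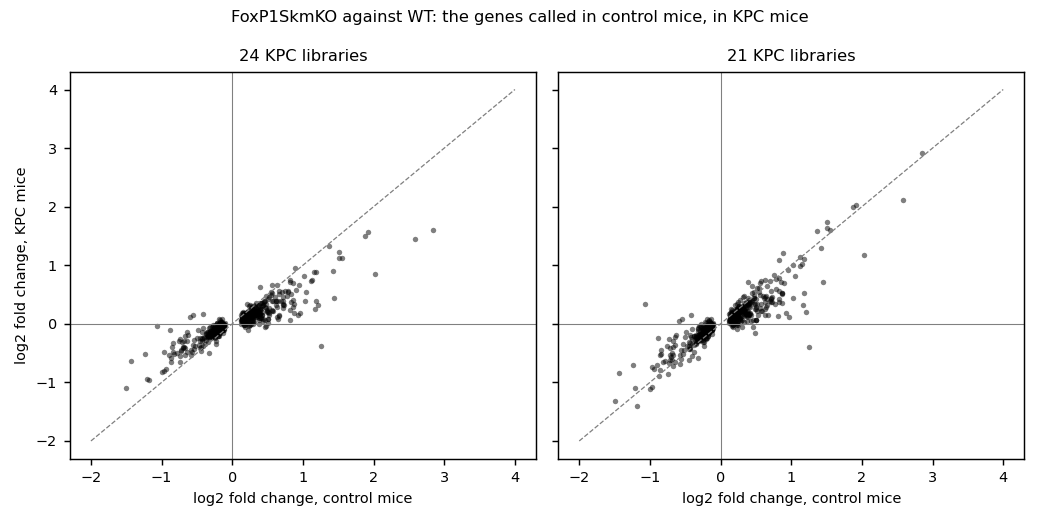
Log2 fold change of FoxP1SkmKO against WT in KPC mice (vertical axis) against that in control mice (horizontal axis) for the genes called in control mice, with all 24 KPC libraries (left) and without the 3 libraries that went against their labels (right); the dashed line marks equal values. Of 525 genes, 494 have the same sign in both sets on the left and 493 on the right.

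The difference of the genotype effect between control and KPC mice was tested directly. No gene of 14117 was called (0%), with 744 at an unadjusted p under 0.05, and none was called without the 4 libraries that went against their labels. The 3 genes with the smallest p were *Trim21*, an intracellular antibody receptor, at 0.34 in control and -0.35 in KPC mice, the helicase gene *Recql5* at 0.23 and -0.10, and *Klhdc3* at -0.14 and 0.08, with adjusted p of 0.708, 0.791, and 0.791 by edgeR for the difference.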

How the data were processed

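RNA of tibialis anterior muscle was poly-A selected and sequenced by the authors. The submitters' processing notes name HISAT2 2.0.5, DESeq2 1.20.0, and mm39, whereas the methods name another aligner and counter, so which made the values is uncertain. The deposited raw counts per gene were not normalized. The authors' FPKM values served only to tell which genes a comparison table had left out: 34264 to 35479 of 56748 genes, whose counts were at most 1 and added up to 0.0035% of reads. The authors' normalized values, fold changes, and p-values were not used. Whether counting used strand is not given in the sources used here, so overlapping genes may share reads.

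Counts of the 24 control libraries, 15130678 to 20139355 each, were filtered with filterByExpr, scaled by TMM, and fitted with genotype and circadian time in edgeR 4.0.16 (quasi-likelihood F test, R 4.3.3). P-values were adjusted by the Benjamini-Hochberg method over all genes tested, and a gene was called at an adjusted p under 0.05. SE is the size of the log2 fold change divided by the square root of F. The same fit was made for KPC mice, and tests of genotype by time and genotype by tumor used interaction terms. The fit was tested on simulated data of 13437 genes for the control comparison and called 81% of genes changed by 0.5 and 100% of those changed by 1 on the log2 scale, with 7 unchanged genes called. The changed genes were drawn from those with a mean above 1 CPM. The simulated libraries held no change over the day, no outlying library, and none against its label, so these shares need not hold for the real counts. P-values measure the spread between mice, 2 per genotype and time. In the fit with genotype and circadian time, the 17 residual degrees of freedom also hold any variation of the genotype effect between times.

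The genes named were *Foxp1* and *Nnt*, the 12 largest positive and 12 largest negative changes among protein-coding genes called with and without CT26, with a mean log2 CPM above 0 and 1 direction at all 6 times, up to 4 called members of each list or 2 of the highest level where none was called, all clock activators and repressors apart from 1 that is not reported here, the 3 smallest p of each interaction test, and called genes within 10 Mb of *Foxp1*. The members and lists were chosen with earlier results of these data known. *Errfi1*, *Glul*, *Mstn*, *Myl2*, *Ctsl*, *Mt1*, *Otud1*, *Egf*, *Wls*, and the genes whose ranges did not overlap were named after their values were seen. Alternatives were DESeq2 1.42.0 and its size factors, no filter, a replicate block, no time term, and leaving out each library or time. Figures were drawn with matplotlib 3.10.9.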

Additional observations from a re-analysis of the deposited data

Results flagged for a closer look

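The genotype effect differed between circadian times for 42 genes in the test over all 6 times, and for 712 genes when CT26 was set against the other 5 times. Both were tested with edgeR's quasi-likelihood test. Among clock genes, the log2 effect at CT26 less that at the other times was 1.32 for *Per1*, 1.46 for *Per2*, 0.60 for *Per3*, and 0.40 for *Klf9*, a glucocorticoid-induced repressor measured at 129 and 147 CPM in WT and at 177 and 166 CPM in FoxP1SkmKO mice at CT26. The kinase gene *Hipk2* had the largest of these values, 2.02.

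In the other direction, 32 of 81 subunits of oxidative phosphorylation, 20 of 75 cytosolic and 14 of 77 mitochondrial ribosomal proteins were called lower in the CT26 contrast, beside 1.97% of all genes. The value was -0.43 for *Cox7c*, a subunit of cytochrome c oxidase, which was 196 and 194 CPM in WT and 157 and 127 CPM in FoxP1SkmKO mice at CT26. It was -0.35 for *Mtln*, which encodes the mitochondrial peptide mitoregulin, -0.41 for *Mrpl42* and -0.35 for *Mrpl12*, both of the mitochondrial ribosome, -0.40 for the fatty acid carrier *Fabp4*, and -0.32 for skeletal actin, *Acta1*. Each of these rests on 2 mice per genotype at CT26. There, WT replicate 1 stood farthest from the other control libraries, and the library labelled FoxP1SkmKO replicate 1 went against its label in the leading genes. The lower calls of this contrast were all lost without WT CT26 replicate 1, a fit that left 1 WT mouse at CT26. Whether that library or the smaller number of mice accounts for the loss was not tested, nor was the part of the other libraries in the single genes.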

How the results depend on the processing

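No result reversed under any alternative. The 526 genes called for genotype became 986 without a filter on low counts, 247 without CT18, 342 without CT22, 256 without CT38, and 146 without circadian time in the model, and 382 to 558 when 1 library was left out. DESeq2 called 670 and its size factors in edgeR 524. The 476 genes called without CT26 became 1022 with no filter, and 364 to 576 when 1 library was left out. The 42 genes called for genotype by time became 3 without CT26 and 373 by the DESeq2 likelihood ratio test, and 4 to 165 when 1 library was left out. It moved by over 1.5 times without any of 14 libraries, down to 4 without WT CT26 replicate 1 and up to 165 without FoxP1SkmKO CT38 replicate 1. The 712 genes of the CT26 contrast became 24 to 1043, the fewest without WT CT26 replicate 1. The 3 genes called in KPC mice became 116 without the 3 libraries that went against their labels. Fewer mice were compared wherever a time or library was left out, and the other causes were not tested.

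With the replicate number as a block, 537 genes were called for genotype, 504 without CT26, 33 for genotype by time, 696 for the CT26 contrast, 4 in KPC mice, and 0 for genotype by tumor. Correlations of same-numbered samples' deviations ran from -0.142 to 0.0891, so the numbers gave no sign of pairing. Of the named genes, 48 were called, 23 of them under every alternative run for that comparison. Depth limits genes under about 1 CPM most, such as *Cacnb4*.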
